A study of Drosophila melanogaster with 3 samples.

Results

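CG1677 and Tlk are 2 genes of the Drosophila melanogaster X chromosome that each carried a run of reproducible ChIP-seq regions for the tagged protein encoded by CG10565. The genes were chosen by their number of reproducible regions in these same lists, out of 17873 annotated genes, and were found by symbol in the Ensembl annotation. Every call with its summit in either gene or within 1000 bp of it was taken. This gave 70 of the 30000 regions called on the pooled replicates and 14 of the 1143 regions of the authors' optimal list. It also gave 84, 45 and 71 of the 30000 calls of replicates 1, 2 and 4. The pooled list is labelled as peaks and background for input to IDR (explained below), and the replicate lists are equally long. A weak pooled or replicate call may therefore be background and is not by itself a binding site. Since the counts of regions chose the genes, the counts and signals below are a description and carry no test.

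Chromatin immunoprecipitation and sequencing (ChIP-seq) was done on whole embryos of mixed sex, aged 0 to 24 h, from a transgenic line that stably expresses CG10565 with eGFP at its C terminus. An anti-GFP antibody recovered chromatin sonicated to 200 to 800 bp, in 3 biological replicates numbered 1, 2 and 4. They form 1 group, with no second genotype or treatment, and each list was called against 1 control alignment, which was not analysed here. A whole embryo mixes all cell types and stages of its age range, so a region cannot be assigned to a cell type. The optimal list was derived by the irreproducible discovery rate (IDR), which scores how alike regions rank across replicates; its members are called IDR peaks. Each region has a signal given by the authors' peak caller, which is comparable only within its list, so replicates are compared by rank (1 is the strongest). Read depth is unknown, because the lists carry signals and not counts.

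The CG10565 product belongs to the J-domain co-chaperones; its mammalian relative DNAJC2 works at the ribosome and has also been found on chromatin. Tlk encodes the Tousled-like kinase, which phosphorylates the histone chaperone Asf1 and so acts on the supply of histones for chromatin assembly. CG1677 is annotated in RefSeq as an uncharacterized protein. Its long introns hold other genes, among them brk (brinker), the repressor of Dpp target genes in the embryo and the wing, whose own transcription is silenced where Dpp signals. Distances are therefore given both to the starts of the host gene and to those of the nested genes.

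The sequence of 4 of the 14 IDR peaks is given because the account turns on them: the strongest peak of each gene, the peak next to brk and the peak inside Dok. Each runs for 100 bp on both sides of the pooled summit, on the plus strand of the RefSeq release 6 assembly (dm6), outside annotated exons. Capitals mark the stretch that spans the pooled summit and the summits of all 3 replicates. It was 34 bp long in Tlk, 11 bp beside CBP, 32 bp beside brk and 48 bp in Dok.
Tlk intron, chrX:3742119-3742319: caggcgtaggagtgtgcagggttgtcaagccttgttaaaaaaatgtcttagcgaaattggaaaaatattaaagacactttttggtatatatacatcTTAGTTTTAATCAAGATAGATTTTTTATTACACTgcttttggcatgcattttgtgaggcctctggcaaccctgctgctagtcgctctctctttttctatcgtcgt
CG1677 intron, beside CBP, chrX:7336980-7337180: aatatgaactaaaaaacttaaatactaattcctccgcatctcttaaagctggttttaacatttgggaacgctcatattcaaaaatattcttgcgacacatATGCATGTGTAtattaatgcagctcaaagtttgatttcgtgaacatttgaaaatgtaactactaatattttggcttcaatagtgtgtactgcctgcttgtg
CG1677 intron, beside brk, chrX:7307055-7307255: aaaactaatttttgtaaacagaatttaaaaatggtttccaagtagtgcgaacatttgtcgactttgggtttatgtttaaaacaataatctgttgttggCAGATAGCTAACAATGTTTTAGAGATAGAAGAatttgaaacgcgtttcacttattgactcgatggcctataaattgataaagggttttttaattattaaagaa
CG1677 intron, in Dok, chrX:7324914-7325114: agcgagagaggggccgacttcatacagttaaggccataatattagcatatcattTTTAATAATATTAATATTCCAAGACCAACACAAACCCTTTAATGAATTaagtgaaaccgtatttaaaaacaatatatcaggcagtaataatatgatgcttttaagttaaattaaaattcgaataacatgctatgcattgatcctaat

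CG1677 (FBgn0029941) spans 124709 bp of the X (chrX:7281089-7405797, minus strand). It has 4 annotated transcripts that start at 3 positions, and exons make up 3.89% of its length. Its transcripts RA and RD start at 7286195, RC at 7284877 and RB at 7405797, so RB alone crosses the long introns. The pooled list held 41 calls at CG1677 and 9 of them were IDR peaks, where 3.81% of all pooled calls and 4.83% of those on the X were IDR peaks. Pooled calls numbered 32.4 per 100 kb at CG1677 and 18.0 per 100 kb over the whole X. IDR peaks numbered 7.10 per 100 kb at the gene and 0.871 per 100 kb over the X. The 3 replicate lists held 49, 32 and 41 calls there. These were 38.7, 25.3 and 32.4 per 100 kb, against 19.9, 16.4 and 19.1 over the X.

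All 9 IDR peaks of CG1677 lay in 1 of its introns, a stretch of 72465 bp from 7286196 to 7358660 with 12.4 IDR peaks per 100 kb and 35 pooled calls. The next intron toward the RB start, 46457 bp long, held 5 pooled calls and 0 IDR peaks. The peak nearest to a CG1677 start was at -5820 bp from the start shared by RA and RD (negative distances are upstream in the direction of transcription). The RB start had no IDR peak. The long non-coding RNA lncRNA:CR44357 covers all of CG1677 on the same strand and extends beyond its 3′ end, so the same 9 peaks also lie in that gene, which held 10.

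**Figure D1:**
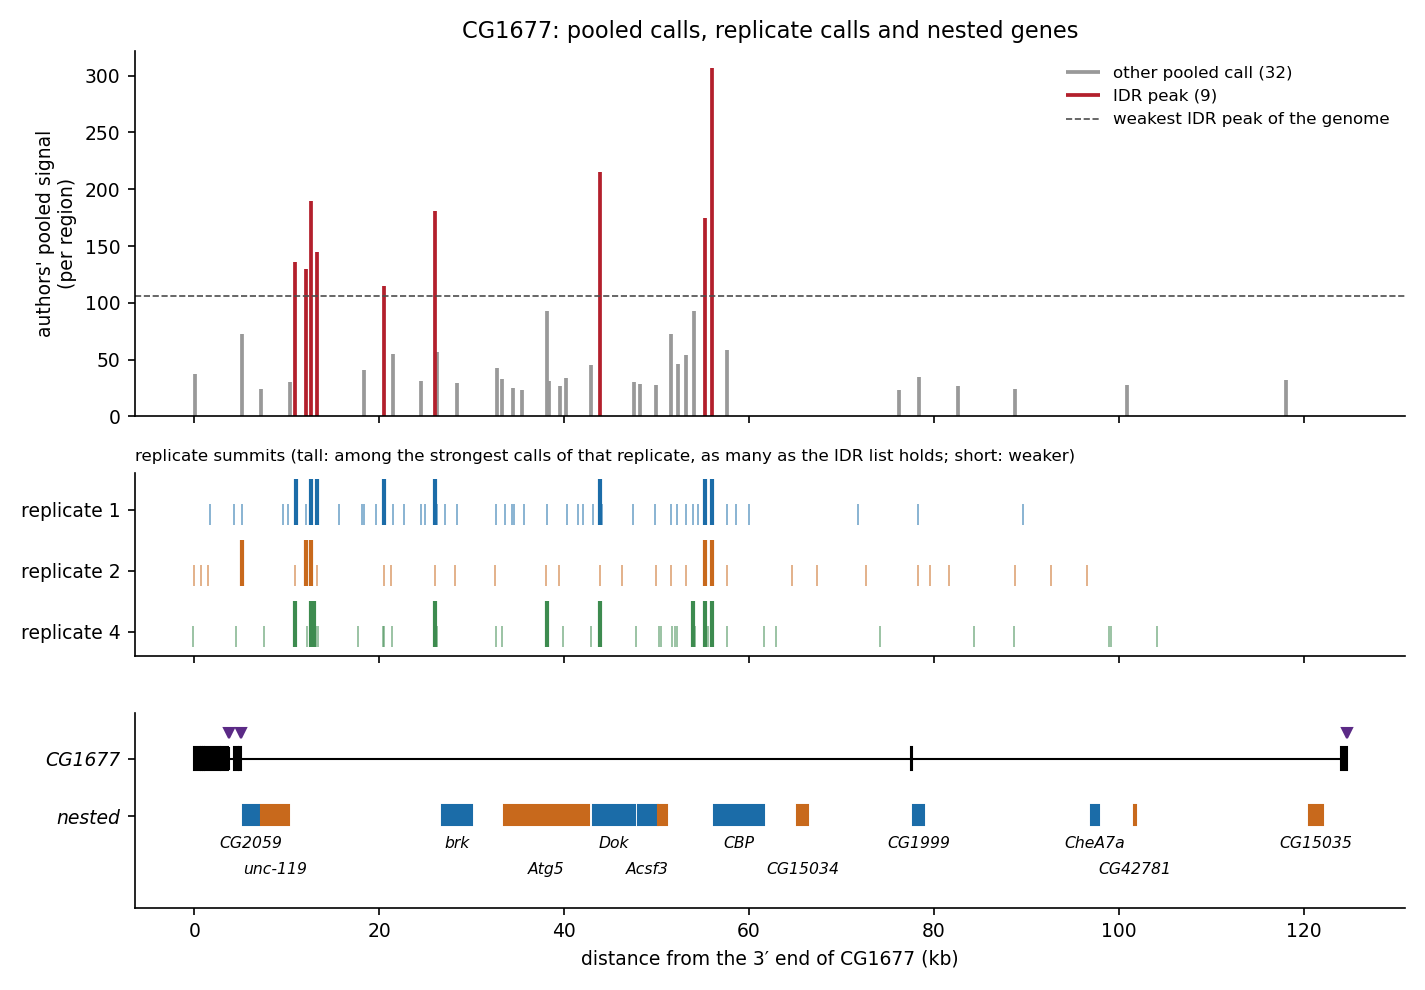
Calls along CG1677 by distance from its 3′ end (kb). Top, the authors' pooled signal of each of the 41 pooled calls, with 9 IDR peaks in red, 32 other calls in grey and the signal of the weakest IDR peak of the genome, 106, as a dashed line; middle, summits in each replicate, tall where among its strongest 1143 calls; bottom, exons (black), starts (triangles) and the 13 nested genes (blue plus strand, orange minus strand; CG42780, beside Acsf3, is drawn without its name). The IDR peaks stand in the part of the intron that holds unc-119, brk, Dok and CBP.

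The intron of CG1677 that holds the peaks, with the next one, contains 13 protein-coding genes: CG2059, unc-119, brk, Atg5, Dok, Acsf3, CG42780, CBP, CG15034, CG1999, CheA7a, CG42781 and CG15035. An IDR summit lay in or within 1000 bp of 4 of them (unc-119, brk, Dok and CBP), where 8.41% of all annotated genes had one. A pooled summit lay inside 6 of the 13, where 40.2% of all genes had one inside. In every case but Dok the IDR summit was outside the nested gene. The 9 peaks thus stood between nested genes or in an intron of one, and 0 of them were in an exon.

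The stretch between unc-119 and brk carried 6 of the 9 peaks. It is 16640 bp long (chrX:7291299-7307938) and lies upstream of both genes, since unc-119, a lipid-binding trafficking factor gene, is transcribed from the minus strand and brk from the plus strand. It held 11 pooled calls, and its IDR peaks numbered 36.1 per 100 kb. The 4 peaks on the unc-119 side had summits at -717, -1898, -2475 and -3052 bp from the unc-119 start. Their pooled signals were 136, 130, 189 and 145, and the last 3 summits were 577 bp apart from one to the next.

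On the brk side, a peak of pooled signal 114.5 had its summit at -6291 bp from the brk start. It was the weakest IDR peak of CG1677, at pooled rank 986. A peak of signal 181 lay at -784 bp from the brk start, at pooled rank 354. This last peak ranked 494, 1378 and 124 in replicates 1, 2 and 4, and its sequence is printed above. Replicate 2 was thus the lowest of the 3 at the peak next to brk. Among its strongest 1143 calls, replicate 2 had 2 summits in the whole stretch, replicate 1 had 5 and replicate 4 had 4.

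**Figure D2:**
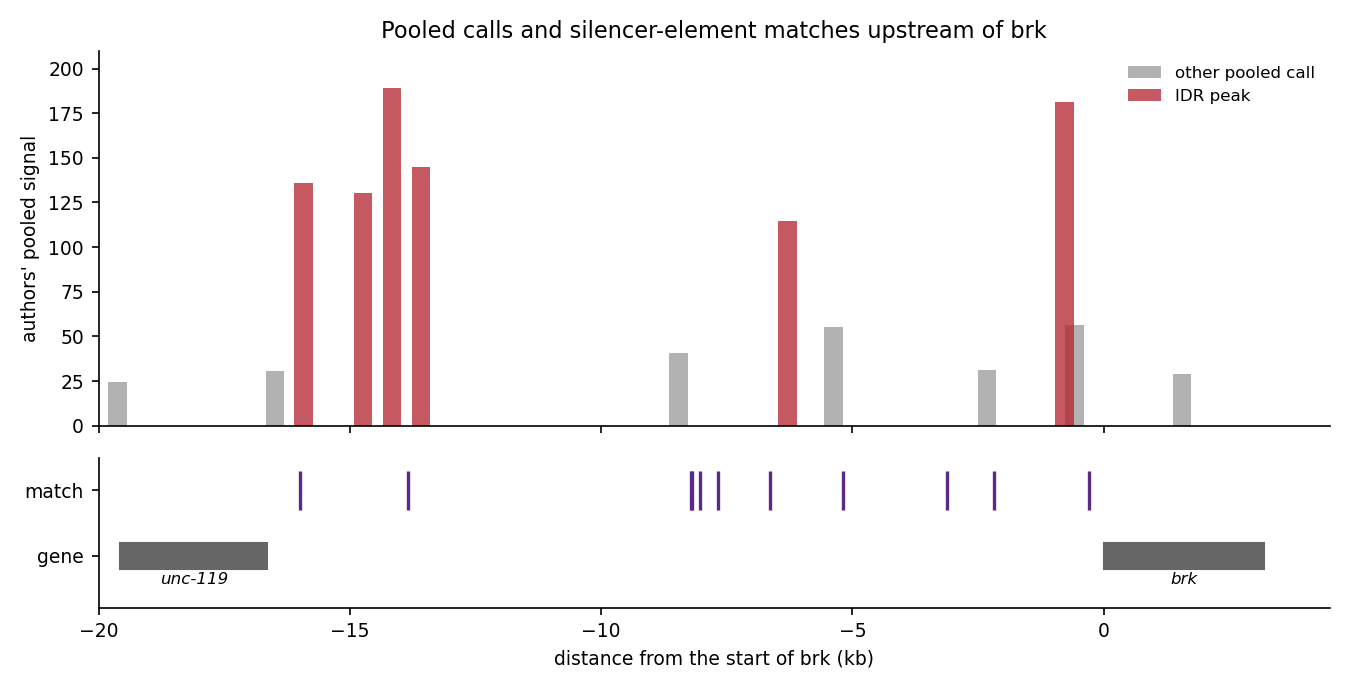
Pooled calls between unc-119 and brk by distance from the brk start (kb, negative upstream). Bars have the width of the call and the height of the authors' pooled signal, red for IDR peaks and grey for other calls; ticks below mark the 11 matches to the silencer element described in the text, of which 2 lie inside a pooled call; pooled calls cover 23.2% of the stretch.

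Control regions of brk are known to hold a silencer element bound by the Dpp pathway factors Mad and Medea with Schnurri. Its letters were searched as GNCGNC and GTCTG separated by 5 bases, on both strands, with N in place of a narrower choice at the second base. The stretch between unc-119 and brk held 11 matches, or 66.1 per 100 kb, and the whole X held 151, or 0.641 per 100 kb. Of 1414 tiles of 16640 bp along the X, 9.19% held a match, and the highest counts in a tile were 11 and then 3. The tiles had the length of the stretch, and the tile of 11 held the matches of the stretch itself. That top count therefore restates the chosen stretch, and a grid laid otherwise could split it. CG1677 held 12 matches and Tlk held 0.

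Of the 11 matches, 1 lay inside an IDR peak and 2 inside any pooled call. Pooled calls covered 23.2% of the stretch, so the count inside calls was near their share of its length. The match inside an IDR peak was on the minus strand, 63 bp from the summit of the peak at -717 bp from unc-119. The match closest to the brk start was at -283 bp from it and 509 bp from the nearest IDR summit. Both are printed because they are the matches nearest to a peak and to the gene, with the paired sites in capitals and the spacer in lower case.
Match in the IDR peak, chrX:7291944-7291959, minus strand: GGCGCCcgtgcGTCTG
Match nearest to brk, chrX:7307656-7307671, plus strand: GTCGTCagtttGTCTG
The second base is T in the match nearest to brk and C in the match at chrX:7304830-7304845, where the others of CG1677 have A or G. Matches under the narrower choice at that base were not counted separately. A match to these letters describes the sequence and does not show that a factor was bound there.

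The other 3 peaks of CG1677 lay at Dok and CBP. Dok encodes an adaptor protein that acts downstream of tyrosine kinases, and its peak had a summit 800 bp inside the gene from its start, in an intron. The Dok peak had a pooled signal of 215 at rank 229 and ranked 168, 1489 and 75 in replicates 1, 2 and 4. As at brk, replicate 2 gave it the lowest rank. CBP encodes a calcium-binding protein of the sarcoplasmic type, and 2 peaks lay in the 5160 bp between CG42780 and CBP, which held 6 pooled calls.

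The strongest region of CG1677 was next to CBP. Its summit lay at -272 bp from the CBP start, with a pooled signal of 307 at rank 90, and it ranked 82, 76 and 588 in replicates 1, 2 and 4. It was the only 1 of the 14 IDR peaks within 500 bp of any annotated transcription start site (TSS). The companion peak at -998 bp from CBP had a signal of 174 and ranked 868, 420 and 645. Both peaks were among the strongest 1143 calls of every replicate, a property shared in CG1677 only with the peak at -2475 bp from unc-119.

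The weaker calls of CG1677 fell below its IDR peaks, an order that follows from pooled rank. The strongest call outside the IDR list had a signal of 93.3, at -2222 bp from CBP, and was followed by a call of 92.5 in an intron of Atg5, an autophagy gene, and by a call of 72.7 at -506 bp from CG42780. The weakest IDR peak of the whole genome had a signal of 106. The start shared by RA and RD had a pooled call of signal 72.7 at rank 2280. Replicate 2 placed a call there at rank 677, with its summit at -103 bp from that start and -60 bp from the start of CG2059 on the other strand.

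Tlk (FBgn0283657) spans 69764 bp (chrX:3720007-3789770, plus strand), with 14 annotated transcripts from 8 start positions and exons over 16.6% of its length. The pooled list held 29 calls at Tlk and 5 of them were IDR peaks. Pooled calls numbered 40.4 per 100 kb and IDR peaks 6.97 per 100 kb, against the 18.0 and 0.871 of the whole X. The replicate lists held 35, 13 and 30 calls. These were 48.8, 18.1 and 41.8 per 100 kb, against 19.9, 16.4 and 19.1 over the X. In replicate 2 the density of calls at Tlk was thus near that of the X. Replicate 2 had fewest calls at both genes and also on the whole X (3866, against 4675 and 4506).

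The IDR peaks of Tlk clustered in the intron downstream of its start at 3739897. This intron of 6958 bp, from 3740205 to 3747162, held 3 of the 5 peaks and 7 pooled calls. The first of them was the strongest region of either gene. Its summit at 3742219 lay 2322 bp downstream of the start of transcript RK, with a pooled signal of 453 at rank 29. It ranked 69, 48 and 15 in replicates 1, 2 and 4, with summits no more than 29 bp from the pooled summit, and its call was 221 bp wide where 12 of the 14 IDR peaks were 370 bp wide. It was thus among the very strongest calls of every replicate.

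The other Tlk peaks had lower signals and lower ranks. The summits at -3540 and -2927 bp from the start of transcript RB (3747163) had pooled signals of 123 and 131. They ranked 1002, 636 and 25275, and 1741, 1050 and 279, in replicates 1, 2 and 4. A peak 1659 bp downstream of the start of transcript RN had a signal of 108, the weakest of the gene, and ranked 2215, 566 and 2534. The peak at -1641 bp from the start of transcript RI had a signal of 112, ranked 822 in replicate 1 and 1882 in replicate 4, and had no call in replicate 2.

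Every other pooled call of Tlk was well below the edge of the IDR list, which at this gene also followed pooled rank. The strongest of them had signals of 53.4, 52.9 and 49.2, under the 108 of the weakest IDR peak of the gene. The start of the most transcripts, 6 of 14 at 3720007, had no IDR peak, and none of the 8 starts had one within 500 bp. Tlk holds the microRNA gene mir-4962 and 5 annotated transposable elements, the longest of 7498 bp, and 0 pooled summits fell in those elements. The sources used here do not say how reads with several possible positions were handled. The neighbours Rala, upstream, and HIP-R, downstream, had no IDR peak in the gene or within 1000 bp.

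Nearly all of the peaks had a call in each replicate, and fewer had a strong one. The pooled summit lay inside a call of every replicate for 9 of 9 peaks of CG1677 and 4 of 5 of Tlk, where the share was 88.2% of all IDR peaks. Only the strongest 1143 calls of each replicate being counted, 3 of 9 and 1 of 5 were supported by every replicate, where the share was 38.4%. Such support is not independent evidence, because IDR used the same replicate calls. A replicate call of low rank may also be background. Calls at the 2 genes were up to 370, 350 and 600 bp wide in replicates 1, 2 and 4, and neighbouring calls of replicate 4 could overlap. Support and call counts are therefore not strictly alike between replicates. Without replicate 2, all 5 peaks of Tlk had a call in each replicate.

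The distance from each pooled summit to the nearest summit among the replicate calls that held it had a median of 2, 27 and 22.5 bp for replicates 1, 2 and 4 over both genes. The largest distances were 55, 54 and 105 bp. Over all IDR peaks the medians were 15, 18 and 29 bp. Only calls that held the pooled summit were measured, so call width limits these distances at any peak. The likeness to the whole list is therefore a description only. Ranks, taken from the best-ranked call that held the summit, spread more. In replicate 4 the summit of that best-ranked call lay up to 248 bp from the pooled summit. The peaks at -1898 bp from unc-119 and at -3540 bp in Tlk ranked 21688 and 25275 in replicate 4 but 322 and 636 in replicate 2, and the worst rank of any IDR peak of the genome in replicate 4 was 29152. Calls among the strongest 1143 numbered 8, 5 and 9 at CG1677 and 3, 4 and 3 at Tlk in replicates 1, 2 and 4. Of all calls of these replicates on the X, 3.76%, 5.98% and 4.55% were in that set.

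**Figure D3:**
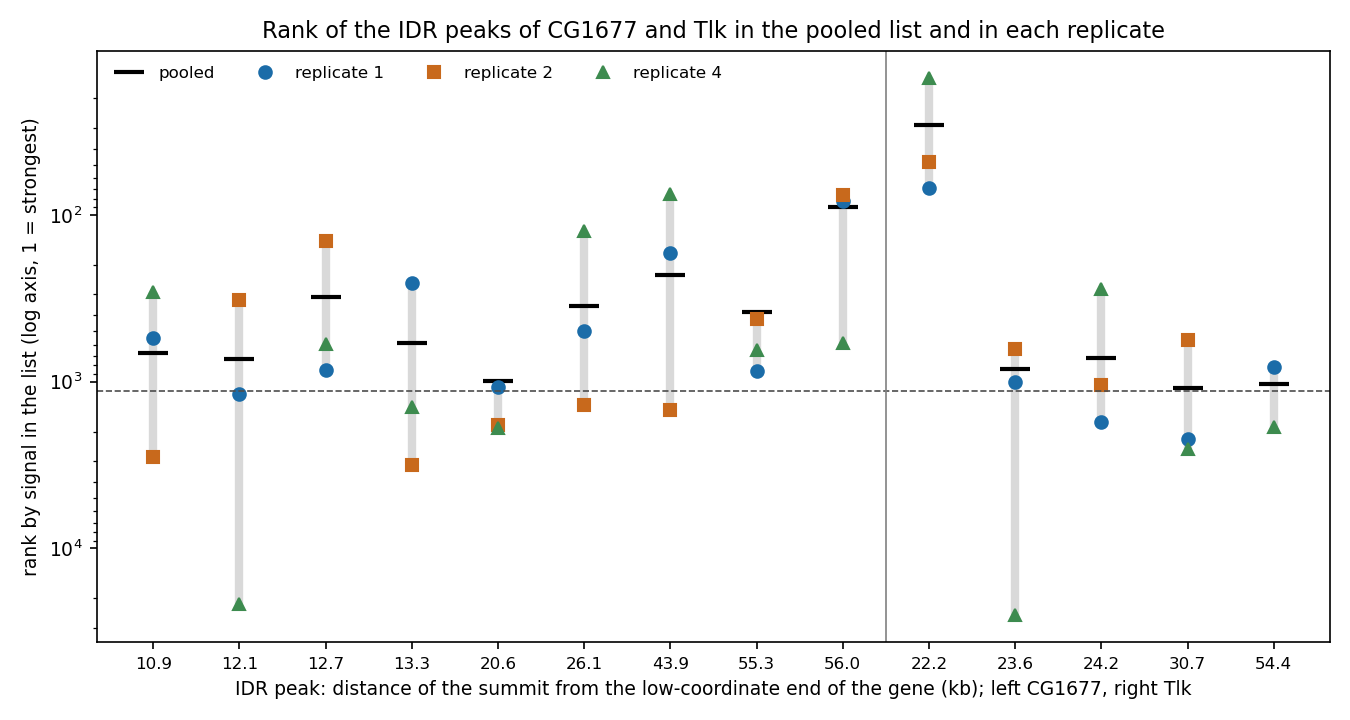
Rank by signal of the 14 IDR peaks in the pooled list (black bars) and in replicates 1 (circles), 2 (squares) and 4 (triangles), on a log axis with the strongest at the top. Peaks are named by the distance of the summit from the low-coordinate end of the gene (kb), CG1677 left and Tlk right of the vertical line, and the dashed line is rank 1143; the strongest Tlk peak has the best ranks, and the 2 peaks at the foot of the plot rank 21688 and 25275 in replicate 4.

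Most of the peaks of both genes lay away from start sites. Of the 14 peaks, 13 (92.9%) lay over 500 bp from every TSS, where the share was 45.1% of all IDR peaks and 54.1% of those on the X. The same held for 4 of the 5 IDR peaks of ush, another long gene described below, so this trait is not particular to the pair. The median distance to the nearest TSS was 1778.5 bp for the 14, 2280 bp for the peaks of ush and 374 bp for all IDR peaks. None of the 14 summits was in an exon, as at ush, and 11.5% of all IDR summits were. With a limit of 1000 bp, 4 of the 9 peaks of CG1677 and 5 of the 5 of Tlk were away from every TSS, where the share was 34% of all IDR peaks.

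The peaks stood close to each other and far from the next ones. Another IDR summit lay within 10 kb of 12 of the 14, where the share was 36.3% of all IDR peaks. Genes chosen for many IDR peaks hold closely spaced ones largely by that choice, so this comparison is a description only. The median distance to the nearest IDR summit was 726 bp in CG1677, 1404 bp in Tlk and 20006 bp over the genome. At ush, 4 of 5 peaks had another within 10 kb, and the median was 1052 bp. Beyond the genes, the next IDR summits lay 38971 bp past the 3′ end and 292629 bp past the 5′ end of CG1677. For Tlk they lay 237136 bp before its 5′ end and 78937 bp past its 3′ end.

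Summits no more than 10 kb apart formed chains, a limit chosen after the data had been seen. The 6 peaks between unc-119 and brk made 1 chain of 15140 bp, and 4 chains of the genome had 6 peaks, the largest number reached. The first 4 peaks of Tlk made a chain of 8501 bp. Of all chains, 728 consisted of a lone peak, 130 of 2 and 33 of 3. With a limit of 5 kb the peak next to brk stood alone, and with 20 kb its chain had 9 peaks.

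The density was set beside that of the 313 protein-coding genes of 50 kb or more, and since peak counts chose the pair, its high place is given as a description. Of these genes, 28.4% had an IDR peak, and their median density was 0 per 100 kb. CG1677 and Tlk ranked 2 and 3 in IDR peaks per 100 kb, after ush with 7.54. Shorter genes were not ranked, and some of them were denser, as given below. By pooled calls per 100 kb they ranked 57 and 15 among the same genes.

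**Figure D4:**
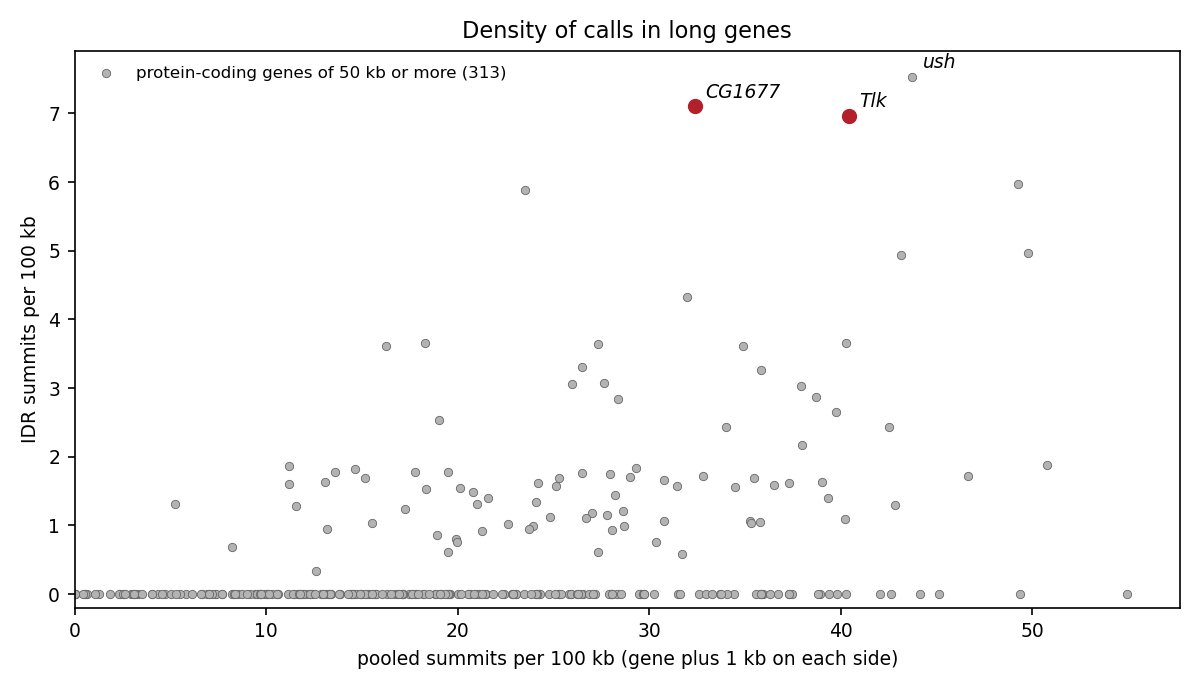
Density of IDR summits against density of pooled summits (each per 100 kb of the gene plus 1 kb on each side) for 313 protein-coding genes of 50 kb or more, 1 point per gene. CG1677, Tlk and ush lie at the top, between 6.97 and 7.54 IDR summits per 100 kb, while most genes are at 0.

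Genes with the most IDR summits were named as those most like the pair. A count of 5 or more was reached by 8 genes, or 0.0448% of those annotated, among them CG1677, Tlk and lncRNA:CR44357. The other 5 had 5 peaks each. They were ush, which encodes a cofactor of GATA factors, CHES-1-like, a forkhead factor gene, simj, which encodes a component of a chromatin remodelling complex, Eip75B, an ecdysone-induced nuclear receptor gene, and tara. The strongest pooled signal was 835 in ush, 230 in CHES-1-like and 254 in simj, and 151 and 141 in Eip75B and tara, against 307 in CG1677 and 453 in Tlk. IDR peaks per 100 kb were 17.9 in simj, 17.2 in CHES-1-like and 13.6 in tara, all shorter than 50 kb. They were 7.54 in ush and 4.32 in Eip75B, against 7.10 in CG1677 and 6.97 in Tlk.

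Lists of other genes were counted the same way. No link of CG1677 to the genes of nuclear RNA surveillance and cap binding was tested. Of 11 histone chaperone and chromatin assembly genes found by symbol, 2 had an IDR summit in the gene or within 1000 bp, and 7 had a pooled one, where the shares were 8.41% and 68.8% of all genes. They were dre4, which encodes a subunit of the histone chaperone FACT (signal 114, at -149 bp), and Daxx, a histone chaperone gene (signal 127, at -193 bp). The substrate of the kinase, asf1, had 1 pooled call, of signal 24.95. Of 9 cell cycle and DNA damage kinase genes, aurA (signal 118) and Cdk1 (signal 150) had an IDR summit, at -138 and -292 bp. Of 15 genes of nuclear RNA surveillance and cap binding, Rrp40, which encodes an exosome subunit, had one (signal 169, at -862 bp). Counts of 1 or 2 do not set a list apart from the share of all genes. Each of these 5 genes had 1 IDR peak.

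The sequences around the 14 summits were rich in A and T. The median GC content within 100 bp of the summit was 32.3%, where it was 34.3% over all IDR peaks and 38.3% over all pooled calls, and it ran from 23.9% to 41.3% among the 14. None of the 14 sequences had another match on the main chromosomes by BLAST at an E-value of 1e-10, and none matched another of the 14. The 4 sequences printed above are therefore not copies of a repeat under this search.

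Short motifs were looked for up to 100 bp from each summit, reading both strands. The E-box, CANNTG, occurred in 8 of the 14 and in 57.7% of all IDR peaks and 63.3% of all pooled calls. The GATA site, GATAA, occurred in 5, against 41.2% and 36.2%, and the Pho core, GCCAT, in 4, all in CG1677, against 26.0% and 33.0%. The GAGA element, GAGAG, occurred in 2, the strongest Tlk peak and the Dok peak, against 23.2% and 19.7%. The BEAF-32 core, CGATA, and a run of A, AAAAAAAA, also occurred in 2 each, against 25.8% and 14.7% of IDR peaks. The GA repeat GAGAGAGA, the CA repeat CACACACA and the Zelda site CAGGTAG occurred in 0, against 1.49%, 1.92% and 1.05%. No match says only that the letters are absent from this window.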

How the data were processed

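Peak lists of anti-GFP ChIP-seq from 3 biological replicates were analysed. Per the deposited description, the authors called regions in each replicate and in the pooled alignments, each against 1 control, and derived the optimal list by IDR. The sources used here name no aligner, caller or IDR threshold. The signal of each region is the authors' value, deposited with each list, and was used for ranks inside a list alone. The lists on assembly dm3 were not used, since the genome and annotation were of dm6.

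Genes came from Ensembl release 115, with FlyBase gene identifiers kept and 5896 transposable elements left out of the genes, and sequences from the RefSeq release 6 assembly. Coordinates are 1-based. A call belonged to a gene by its summit, in the gene or within 1000 bp. Ranks, distances, spacing and motif matches were computed with Python 3.11.15, pandas 2.3.3 and numpy 2.4.6, and copies were searched with blastn 2.17.0. Figures were drawn with matplotlib 3.10.9. The counting was tested on simulated data. No test was run, because the lists chose the genes. Named genes were CG1677, Tlk, genes nested in or near them and the nearest TSS of each IDR peak. The 5 other genes with most IDR summits and members of the gene lists with an IDR summit were also named. The members and lists were chosen with earlier results of these data known. The silencer element and the chains were chosen after seeing the data. Alternatives were other windows, assignment by overlap, merged calls, the stronger 571 IDR peaks, left-out replicates and other definitions of support.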

Additional observations from a re-analysis of the deposited data

How the results depend on the processing

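Counts and densities at both genes were the same with windows of 0, 500 or 2000 bp, with assignment by overlap and with overlapping calls merged, within 1.5 times of the values reported. The stronger 571 of the IDR peaks included 5 at CG1677 (3.95 per 100 kb) and 1 at Tlk (1.39 per 100 kb). Support by every replicate fell to 3 peaks at CG1677 and 1 at Tlk with the strongest 1143 calls of each replicate, and was 6 and 2 with the strongest 2286. With any 1 replicate left out it was 9 to 9 at CG1677 and 4 to 5 at Tlk. By construction, a shorter list leaves fewer peaks. Over these alternatives for counts, densities and support, many of them near-identical windows, 35 values stayed within 1.5 times of those reported and 7 did not. For distance from start sites, spacing and motifs, 6 stayed and 6 did not. For the chain and the stretch upstream of brk, 3 stayed and 4 did not. Between unc-119 and brk the stronger 571 IDR peaks numbered 2, and the chain that ends next to brk then had 1 peak; these alternatives were chosen after seeing the data. With motifs within 50 bp of the summit, the E-box occurred in 5 of the 14 peaks, all in CG1677 and 0 in Tlk (34.6% of all IDR peaks), the GATA site in 2 (23.5%), the Pho core in 1 (14%) and the GAGA element in 0 (7.87%), so the GAGA matches of the strongest Tlk peak and the Dok peak did not lie wholly within 50 bp of the summit. No paired analysis was possible because the samples form 1 group and no test was run. The lists give no read counts, so depth limits every value to an unknown degree.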

Other observations

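Of the 32 calls at both genes among the strongest 1143 of a replicate, 3 (9.38%) overlapped no IDR peak, where the share was 26.7% of all such calls. These 3 were at CG1677. Replicate 2 had 1, at rank 677, beside the start shared by transcripts RA and RD. Replicate 4 had the other 2, at rank 860 in Atg5, 4539 bp downstream of its start, and at rank 932 at -2315 bp from CBP. Each of these positions also held one of the strongest pooled calls of CG1677 outside the IDR list or, at the RA start, the pooled call of rank 2280. The genes were chosen for many IDR peaks, so strong calls there overlap one largely by that choice. Overlapping calls of replicate 4 were also counted separately. The share of 9.38% is therefore a description only.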
